A study of Homo sapiens and Mus musculus with 28 samples.

Results

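DLD-1 cells derive from a human colorectal adenocarcinoma and express GATA6, a DNA-binding factor that sets the identity of gut endoderm. Messenger RNA was sequenced from 5 control xenografts, tumours of DLD-1 cells that kept GATA6, and from 3 wild-type (WT) cultures of the same line. These 8 libraries were chosen by their titles out of 28 in all, and the comparison asks what differs between GATA6-intact cells grown as a tumour and grown on plastic. The xenografts were made by injecting control cells into the right flank of athymic nude mice aged 5 to 6 weeks. The labels give 10 mice for each condition and the genotype of the control xenografts as WT. They do not say whether the control cells passed through the knockout procedure, whether they or the cultured cells are a clone, or whether each library is a separate tumour. The WT cultures grew in RPMI medium with 10% fetal bovine serum and carried no tag, drug or edit according to their labels. Another pair of groups, with 5 xenografts and 3 cultures of GATA6 knockout (KO) cells made with CRISPR/Cas9, served as a repeat of the same step in other libraries. Side checks also used cultures of a DLD-1 line in which a degron tag lets auxin remove GATA6. These were untreated, held in 500 µM auxin for 12 or 72 hours, or sampled after auxin washout. Where replicates are not stated to be separate tumours or cultures, a p-value measures only the spread between these libraries.

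A subcutaneous tumour grows without the serum-rich, oxygen-rich medium of a culture dish and depends on vessels, fibroblasts and immune cells of the host. Cells short of oxygen stabilise hypoxia-inducible factors, which raise genes of glycolysis, acid export and vessel growth. Cells spread on stiff plastic keep the co-activators YAP and TAZ in the nucleus, where they act through TEAD factors on genes such as CCN1, CCN2 and ANKRD1. Inflammatory signals act through NF-kappaB on chemokines and through interferon factors on antigen presentation genes. Athymic nude mice lack most mature T cells but keep macrophages, neutrophils, natural killer cells and B cells. All values below are of human genes, and in such bulk samples fewer cells of a type and less RNA per cell cannot be told apart.

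The promoters of 10 genes whose transcripts differed between control xenografts and WT cultures are shown first, 1 to 3 for each of 5 pathways described below. The sequences are those of RefSeq on build GRCh38.p14, read 5′ to 3′ on the strand of the gene and ending at the last base before its annotated start, and capitals mark the letters of the motif named. The hypoxia response core ACGTG, searched on both strands in the 250 bases before the start, stood in 14 of 24 promoters of the hypoxia list (58.3%) and in 18.7% of all 27305 promoters. It is shown for CA9, a carbonic anhydrase of the cell surface (chr9:35673828-35673927, plus strand), and FAM162A, a mitochondrial protein of the hypoxia response (chr3:122384078-122384181, plus strand).
CA9: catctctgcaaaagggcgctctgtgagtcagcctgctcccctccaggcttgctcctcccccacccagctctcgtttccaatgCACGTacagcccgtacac
FAM162A: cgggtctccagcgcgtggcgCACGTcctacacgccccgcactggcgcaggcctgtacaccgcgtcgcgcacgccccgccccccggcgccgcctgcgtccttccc

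The NF-kappaB motif, GGGA and TTCC with any 2 bases between them, stood in 11 of 22 promoters of the NF-kappaB and chemokine list (50%) and in 1.42% of all promoters. It is shown for the 3 neutrophil-attracting chemokines CXCL1 (chr4:73869293-73869392, plus strand), CXCL2 (chr4:74099196-74099295, minus strand) and CXCL3 (chr4:74038690-74038789, minus strand), which lie close together and hold the same 11 capitals, a match on each strand, starting 77 to 79 bases before their starts.
CXCL1: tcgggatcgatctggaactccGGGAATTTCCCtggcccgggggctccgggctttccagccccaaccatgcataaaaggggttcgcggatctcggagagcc
CXCL2: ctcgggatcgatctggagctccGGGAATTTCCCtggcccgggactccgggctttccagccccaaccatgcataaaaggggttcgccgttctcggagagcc
CXCL3: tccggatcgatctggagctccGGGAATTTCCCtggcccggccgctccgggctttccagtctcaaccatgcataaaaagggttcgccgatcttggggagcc

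The interferon response motif, GAAA and GAAA with any 2 bases between them, searched on both strands, stood in 14 of 24 promoters of interferon-stimulated genes (58.3%), in 7 of 16 promoters of the MHC class I list (43.8%) and in 3.07% of all promoters. It is shown for IFIT3, an interferon-induced antiviral protein (chr10:89327821-89327996, plus strand), and B2M, the light chain of MHC class I (chr15:44711353-44711516, plus strand), whose 2 matches overlap.
IFIT3: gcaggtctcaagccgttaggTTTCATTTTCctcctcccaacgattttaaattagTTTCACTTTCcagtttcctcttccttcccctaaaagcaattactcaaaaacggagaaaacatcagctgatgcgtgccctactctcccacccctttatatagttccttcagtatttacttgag
B2M: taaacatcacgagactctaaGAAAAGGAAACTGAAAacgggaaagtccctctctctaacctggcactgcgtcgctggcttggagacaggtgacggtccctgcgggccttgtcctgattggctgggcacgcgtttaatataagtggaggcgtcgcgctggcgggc

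The cell cycle homology region TTTGAA stood in 10 of 20 promoters of the G2/M list (50%) and in 13.6% of all promoters, and CCAAT in 17 of 20 (85%) and in 33%. The TEAD motif CATTCC stood in 4 of 12 promoters of the YAP list (33.3%) and in 11.9% of all promoters. The first is shown for CDC20, an activator of the anaphase-promoting complex (chr1:43358783-43358980, plus strand). The TEAD motif is shown for ANKRD1, an ankyrin repeat protein (chr10:90921088-90921327, minus strand), and CCN2, a secreted matrix protein (chr6:131951373-131951561, minus strand). Other motifs were also searched, with N for any base. The antioxidant motif TGACNNNGC stood in 4 of 14 promoters of the NRF2 list (28.6%) and in 11% of all promoters. The ATF4 motif TGATGNAA stood in 2 of 16 of the ATF4 list (12.5%) and in 3.19%. The CDX motif TTTATNG stood in 1 of 8 of the colorectal list (12.5%) and in 9.29%. A match describes letters in this window and says nothing of binding. Members were not chosen for their promoters, but several lists are defined by the factor named, so their shares are no independent finding.
CDC20: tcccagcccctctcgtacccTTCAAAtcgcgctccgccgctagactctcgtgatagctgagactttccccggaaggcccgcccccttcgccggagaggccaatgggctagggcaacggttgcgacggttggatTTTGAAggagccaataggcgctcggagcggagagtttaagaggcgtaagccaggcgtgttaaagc
ANKRD1: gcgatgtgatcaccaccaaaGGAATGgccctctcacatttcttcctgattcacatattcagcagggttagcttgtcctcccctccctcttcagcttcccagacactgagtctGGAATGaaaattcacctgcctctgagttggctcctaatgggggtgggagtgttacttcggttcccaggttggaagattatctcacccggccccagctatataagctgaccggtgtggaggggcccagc
CCN2: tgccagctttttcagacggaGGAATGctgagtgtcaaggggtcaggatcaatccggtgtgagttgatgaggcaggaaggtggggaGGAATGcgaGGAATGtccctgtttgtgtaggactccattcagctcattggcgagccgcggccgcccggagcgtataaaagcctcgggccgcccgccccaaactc

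Total counts ran from 18408842 to 36500654 over the 8 libraries, and levels are given as CPM, counts scaled to a common library size with TMM factors, which were 1.057 to 1.083 in control xenografts and 0.883 to 0.907 in WT cultures. The files of the xenografts list 62700 genes and those of the cultures 60649, with 60463 in common, so the libraries were counted against different annotations. No label gives a batch or date. Growth as a tumour therefore cannot be told apart from the annotation, the counting and any difference in preparation. The strand setting of the counting is not given in the sources used here, and MT-ND6, the 1 mitochondrial coding gene on the opposite strand, held 0.0502% to 0.082% of mitochondrial counts in control xenografts and 3.28% to 3.41% in WT cultures. Genes named below whose exons share over 25% of their bases with exons of another gene are less certain: VIL1, AXIN2, CA9, ASNS, MTHFD2, RPS2, PSMB10, IRF9, CFB, DUSP6, SFT2D3, MICOS10-NBL1 and BCL2L1. The same holds for members of near-identical families, such as HLA genes, CXCL1 to CXCL3 and CEACAM5.

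Most human genes that mark host cells were low in the tumours, although how mouse reads were handled is not given in the sources used here. The 16 fibroblast genes summed to 10.45 to 16.79 CPM in control xenografts and 2.768 to 4.427 CPM in WT cultures. COL1A1, a fibrillar collagen chain, ran from 1.886 to 8.78 CPM in control xenografts and from 0.2471 to 0.4975 CPM in WT cultures. It was 1 of 3 fibroblast genes at 1 CPM or more in every tumour, while 3 of the 16 were at 0 in all 5 tumours. COL1A2, another collagen chain, had 1 count over the 5 tumours. The 14 endothelial genes summed to 4.036 to 6.01 CPM in control xenografts and 9.885 to 11.28 CPM in WT cultures, with 7 of them, PECAM1 included, at 0 in every tumour. The 16 macrophage genes summed to 6.048 to 10.22 CPM in control xenografts and 6.821 to 7.438 CPM in WT cultures, with 6 at 0 in every tumour, PTPRC among them. The 15 lymphocyte genes summed to 1.47 to 2.225 CPM in control xenografts and 1.433 to 1.94 CPM in WT cultures, with 7 at 0 in every tumour. The 8 red cell genes summed to under 1 CPM in every library. The skin list summed to 35.51 to 60.43 CPM in control xenografts and 18.83 to 21.34 CPM in WT cultures. Control xenograft 2 had the highest skin sum, at 60.43 CPM beside 35.51 to 46 CPM in the other 4 tumours, and KRT14, a keratin of basal skin cells, ran from 0 to 14.8 CPM over the tumours. The skeletal muscle list summed to 13.68 to 24.38 CPM in control xenografts and 6.87 to 9.303 CPM in WT cultures. The neutrophil list summed to 1.587 to 3.168 CPM in control xenografts and 7.414 to 11.84 CPM in WT cultures, with 3 of 10 members at 0 in every tumour. The remaining lists summed to 22.93 to 29.1 CPM in control xenografts and 24.61 to 28.01 CPM in WT cultures for pericytes, 103.8 to 120.4 CPM in control xenografts and 193.3 to 204.1 CPM in WT cultures for adipocytes, and 160 to 179.1 CPM in control xenografts and 160.3 to 161.8 CPM in WT cultures for nerve. Single genes held much of some sums. ADIPOR2 (78.13 to 88.13 CPM) and PPARG (25.2 to 35.64 CPM) led the adipocyte list in control xenografts. Neither ADIPOQ, LEP nor FABP4 had a count in any tumour. TUBB3 (107.5 to 129.5 CPM) and MBP (47.85 to 51.92 CPM) led the nerve list in control xenografts. MPO (6.475 to 10.55 CPM) led the neutrophil list in WT cultures. MB led the skeletal muscle list, at 10.32 to 20.57 CPM in control xenografts and 5.733 to 7.661 CPM in WT cultures. KRT10 and TRPS1 led the skin list, at 17.5 to 27.51 and 16.45 to 20.05 CPM in control xenografts. In WT cultures they ran from 6.218 to 8.878 and from 8.106 to 9.502 CPM. These sums therefore do not measure adipocyte, nerve, neutrophil, skeletal muscle or skin RNA. The part of host reads in the results below was not tested.

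The tumours and the cultures stood far apart. Of 14941 genes tested, 11026 (73.8%) differed between control xenografts and WT cultures at an adjusted p under 0.05 (edgeR quasi-likelihood test, Benjamini-Hochberg over all genes tested). Of these, 5696 (38.1% of the genes tested) were higher and 5330 (35.7%) lower in control xenografts. The median log2 fold change over all genes tested was 0.05. Scaling by total counts moved that median to 0.31 and the split to 7906 higher and 3361 lower, and limma on log2(TPM + 1) gave a median of 0.16, with 6644 higher and 3761 lower, so the balance of directions depends on the scaling and each list below is read against the shares of all genes. Calls with a log2 fold change of 1 or more were less balanced, with 2888 genes higher (19.3%) and 1115 lower (7.46%), and 984 genes (6.59%) passed a log2 of 3 in either direction. The first principal component of the 1000 most variable genes held 90.9% of the variance and separated all 5 xenografts from all 3 cultures. Groups without overlap in CPM were common. They were found for 3459 higher and 4489 lower protein-coding genes, all called and with a mean log2 CPM of 1 or more. A lack of overlap therefore does not set a gene named below apart. A gene near 0 in WT cultures passed the filter on low counts only through the tumours, so its direction was fixed in advance. The list counts and medians below include such genes.

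GATA6 (ENSG00000141448, chr18:22169443-22202528 on hg38) was present in both. It measured 71.9, 74.7, 61.9, 62.5 and 70.02 CPM in control xenografts and 62.7, 80.2 and 98.1 CPM in WT cultures. The groups overlapped, and the log2 fold change of -0.23 (SE 0.132) did not pass the test (adjusted p = 0.139). It did pass without WT culture 1 (log2 -0.39, adjusted p = 0.00149) and with no filter on low counts (log2 -0.23, adjusted p = 0.00212). In KO libraries the transcript averaged 33.7 ± 6.11 CPM in xenografts and 24.6 ± 3.83 CPM in cultures (SD, n = 5 and 3), lower than in the GATA6-intact libraries but not absent. A count over the whole gene does not show where the edit lies.

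Of the 4 genes that mark the comparison, 3 were higher in the tumours and 1 was lower. MUC13, a membrane mucin of the gut lining (ENSG00000173702, chr3:124905442-124953819), measured 167, 195, 169.5, 161 and 184 CPM in control xenografts and 31.4, 29.4 and 28.9 CPM in WT cultures. Every tumour lay above every culture, 5.86-fold on average (log2 2.55, SE 0.0744, adjusted p = 1.12e-14). LEF1, a transcription factor through which WNT signalling acts (ENSG00000138795, chr4:108047545-108168956), measured 72.2, 61, 67, 64.7 and 79.3 CPM in control xenografts and 25.4, 23.1 and 22.7 CPM in WT cultures. The groups did not overlap and LEF1 was 2.89-fold higher (log2 1.53, SE 0.0861, adjusted p = 5.67e-11). PTP4A3, a phosphatase tied to metastasis of colorectal cancer (ENSG00000184489, chr8:141391993-141432454), measured 37.9, 32.4, 40.2, 31.9 and 38.1 CPM in control xenografts and 0.148, 0.348 and 0.66 CPM in WT cultures. It was close to silent in every culture and 96.4-fold higher in the tumours (log2 6.59, SE 0.21, adjusted p = 4.19e-13). SEMA5A, a transmembrane guidance protein of the semaphorin family (ENSG00000112902, chr5:9035026-9546075), measured 12.2, 7.78, 15.1, 10.7 and 10.4 CPM in control xenografts and 128, 122 and 116 CPM in WT cultures. All tumours lay below all cultures, 10.9-fold on average (log2 -3.45, SE 0.172, adjusted p = 3.91e-07).

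The same 5 xenografts can be set against 3 untreated cultures of a DLD-1 line in which a degron tag makes GATA6 removable by auxin. Those values share the xenograft libraries and are given side by side only. There MUC13 had a log2 difference of 5.28, LEF1 of 0.67, PTP4A3 of 6.54 and SEMA5A of -2.20, the signs seen against WT cultures. GATA6 had 0.52 (adjusted p = 3.09e-06), the opposite sign, with a mean of 48.9 CPM in the degron cultures.

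**Figure D1:**
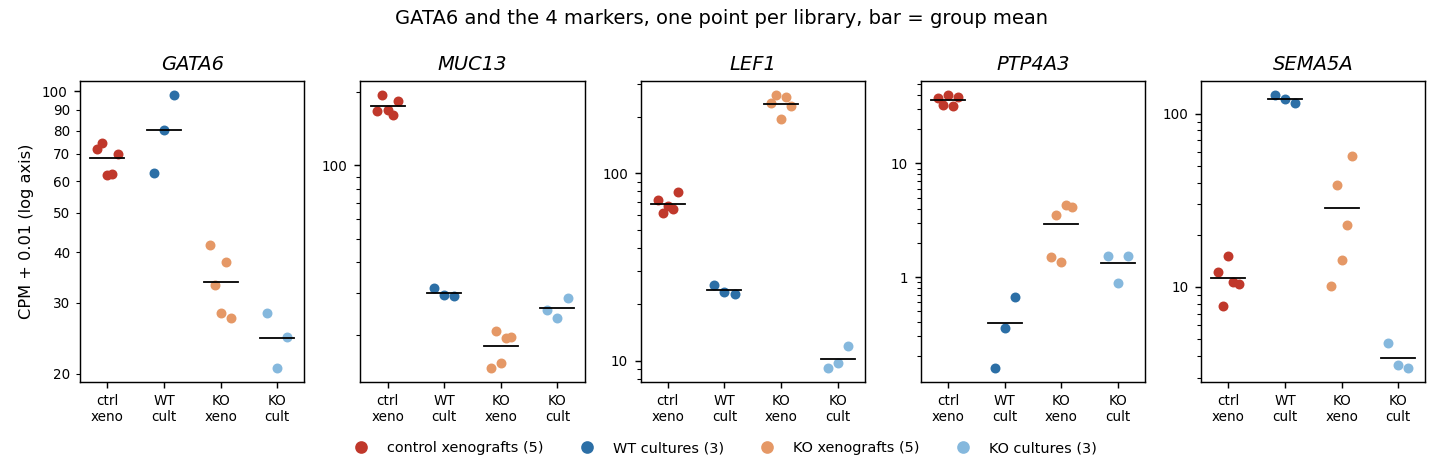
CPM plus 0.01 (log axis) of GATA6, MUC13, LEF1, PTP4A3 and SEMA5A in each library of the 4 groups, with a bar at the group mean; each pair of tumours and cultures is on the scale of its own fit. MUC13, LEF1 and PTP4A3 lie higher and SEMA5A lower in all 5 control xenografts than in all 3 WT cultures, while GATA6 overlaps.

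Genes of the colorectal lining were higher in the tumours as a group. Of 18 colorectal epithelium genes, 13 were higher and 5 lower, with a median log2 fold change of 2.02 beside 0.05 over all genes. CEACAM5, the carcinoembryonic antigen of the colonic surface, measured 41.3, 36.3, 72, 36.3 and 42.8 CPM in control xenografts and 0.297, 0.497 and 0.24 CPM in WT cultures, 128-fold higher (adjusted p = 1.72e-05). Even the lowest tumour stood far above the highest culture. VIL1, the microvillus protein villin, averaged 78 ± 10.6 CPM in control xenografts and 9.06 ± 0.577 CPM in WT cultures (SD, n = 5 and 3; log2 3.11, adjusted p = 2.64e-11). GPA33, a surface glycoprotein of intestinal epithelium, averaged 8.58 ± 2.77 CPM in control xenografts and 0.417 ± 0.0692 CPM in WT cultures (log2 4.33, adjusted p = 4.99e-08). PHGR1, a small protein of gut epithelium, measured 5.7, 5.43, 11.1, 2.94 and 4.67 CPM in control xenografts and had 0 counts in the 3 WT cultures, at least 115-fold higher against a floor of 3 counts over the cultures (adjusted p = 0.00101).

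The 5 epithelial genes that were lower included 4 keratins and the adherens junction protein CDH1. KRT8 and KRT18, the paired keratins of simple epithelia, fell to 3219 ± 275 and 2535 ± 235 CPM in control xenografts, against 10138 ± 555 and 7691 ± 259 CPM in WT cultures (SD, n = 5 and 3; log2 -1.66 and -1.60, adjusted p = 8.7e-13 and 1.35e-12). KRT20, the keratin of differentiated colonocytes, fell to 20.5 ± 4.85 CPM in control xenografts, against 59.2 ± 0.911 CPM in WT cultures (log2 -1.54, adjusted p = 0.000102). Of 12 tested keratins in all, 9 were lower and none was higher, with a median of -1.57. EPCAM, the pan-epithelial adhesion molecule, averaged 791 ± 55.4 CPM in control xenografts and 691 ± 40.7 CPM in WT cultures (log2 0.19, adjusted p = 0.0106). That call was lost without WT culture 2 (adjusted p = 0.074), and against the degron cultures EPCAM had a log2 of -0.27.

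Secretory genes had the highest median among the 25 lists plotted, together with mucosal defence genes. Of 13 tested goblet and mucin genes, 11 were higher and none was lower, with a median of 3.25, and another 7 of the 20 members did not pass the filter on low counts. Of the 20, 10 or 11 reached 1 CPM in each control xenograft and 7 in each WT culture. Members near 0 in WT cultures, such as SPDEF and REG4, passed the filter through the tumours and could only come out higher. The counts and the median are therefore partly set by the filter. MUC1, a transmembrane mucin, measured 67.7, 69.7, 74.7, 67.3 and 63.3 CPM in control xenografts and 1.48, 1.39 and 1.44 CPM in WT cultures (log2 5.57, SE 0.107, adjusted p = 1.07e-16). All tumours lay above all cultures, with little spread in either group. TFF3, the trefoil peptide of goblet cells, averaged 44.9 ± 11.3 CPM in control xenografts and 2.7 ± 0.373 CPM in WT cultures (SD, n = 5 and 3; log2 4.04, adjusted p = 5.43e-06). TFF1, another trefoil peptide, averaged 22.4 ± 2.01 CPM in control xenografts and 1.8 ± 0.398 CPM in WT cultures (log2 3.64, adjusted p = 6.04e-13). SPDEF, a transcription factor of goblet cell maturation, averaged 7.34 ± 0.893 CPM in control xenografts and 0.153 ± 0.179 CPM in WT cultures (log2 5.65, adjusted p = 1.94e-10). REG4, a secreted lectin of secretory cells, averaged 8.4 ± 1.99 CPM in control xenografts and 0.422 ± 0.259 CPM in WT cultures (log2 4.35, adjusted p = 4.4e-09). Enterocyte genes were mixed, with 6 of 9 tested members higher and 3 lower. SLC5A1, the sodium-glucose transporter of the brush border, was higher at 8.74 ± 0.917 CPM in control xenografts and 0.527 ± 0.222 CPM in WT cultures (log2 4.04, adjusted p = 5.67e-11). CA2, a cytosolic carbonic anhydrase, was lower at 6.4 ± 1.27 CPM in control xenografts and 42.9 ± 2.05 CPM in WT cultures (log2 -2.74, adjusted p = 4.42e-11).

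Genes of intestinal stem cells and of WNT signalling were mostly higher. Of 14 tested stem cell genes, 13 were higher and none was lower, with a median of 1.14, and of 17 tested WNT targets 12 were higher and 3 lower, with a median of 0.76. CD44, a hyaluronan receptor of crypt cells, measured 216, 209.6, 247, 199 and 212 CPM in control xenografts and 48.2, 47 and 43.6 CPM in WT cultures (log2 2.23, SE 0.0729, adjusted p = 4.82e-14). The groups did not overlap. EPHB2 and EPHB3, receptors that position crypt cells, had log2 fold changes of 1.43 and 2.47 (adjusted p = 4.1e-12 and 1.59e-12). AXIN2, the standard feedback target of WNT, averaged 580.4 ± 16.8 CPM in control xenografts and 339.9 ± 16.8 CPM in WT cultures (SD, n = 5 and 3; log2 0.77, adjusted p = 7.91e-10). APCDD1, a WNT inhibitor at the membrane, measured 39.99, 18.6, 49.2, 42.4 and 54.1 CPM in control xenografts and 0.89, 1.14 and 0.72 CPM in WT cultures (log2 5.44, adjusted p = 0.000159). MYC, a growth-promoting transcription factor, had a log2 of 0.76 (adjusted p = 2.19e-09). CCND1, the cyclin of G1, went the other way, at 492 ± 28.8 CPM in control xenografts and 1366 ± 60.1 CPM in WT cultures (log2 -1.47, adjusted p = 4.19e-13).

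For the crypt stem cell genes LGR5 and ASCL2 the result depended on which culture was used. LGR5, a receptor for R-spondins, measured 58.2, 57.2, 56.6, 58.3 and 70.1 CPM in control xenografts and 25.4, 21.6 and 24.4 CPM in WT cultures (log2 1.34, adjusted p = 2.07e-10). ASCL2, a transcription factor of stem cell fate, measured 149, 126, 119, 92.7 and 124 CPM in control xenografts and 16, 13.8 and 23.3 CPM in WT cultures (log2 2.80, adjusted p = 2.29e-05). Against the degron cultures, LGR5 had a log2 of -0.23 (adjusted p = 0.00467) and ASCL2 of -0.52 (adjusted p = 0.0109), both of the opposite sign.

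Transcription factors of the gut followed the epithelial genes. Of 19 tested members, 16 were higher and 2 lower, with a median of 0.66. ELF3, an epithelial ETS factor, averaged 283 ± 22.5 CPM in control xenografts and 40.4 ± 1.61 CPM in WT cultures (SD, n = 5 and 3; log2 2.81, adjusted p = 4.21e-15). CDX1, an intestinal homeobox factor, averaged 1.86 ± 0.445 CPM in the tumours and had 3 counts over the 3 WT cultures, a ratio of 36.8 with a 95% counting interval of 12.4 to 179.6 (adjusted p = 1.54e-07). CDX2, the related master factor of intestinal identity, averaged 223 ± 25.1 CPM in control xenografts and 101 ± 12 CPM in WT cultures (log2 1.15, adjusted p = 8.07e-07), but against the degron cultures its log2 was 0.09 (adjusted p = 0.296). SOX4, a factor of progenitor cells, and EHF, another epithelial ETS factor, had log2 fold changes of 1.24 and 0.52 (adjusted p = 2.55e-11 and 6.47e-08).

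**Figure D2:**
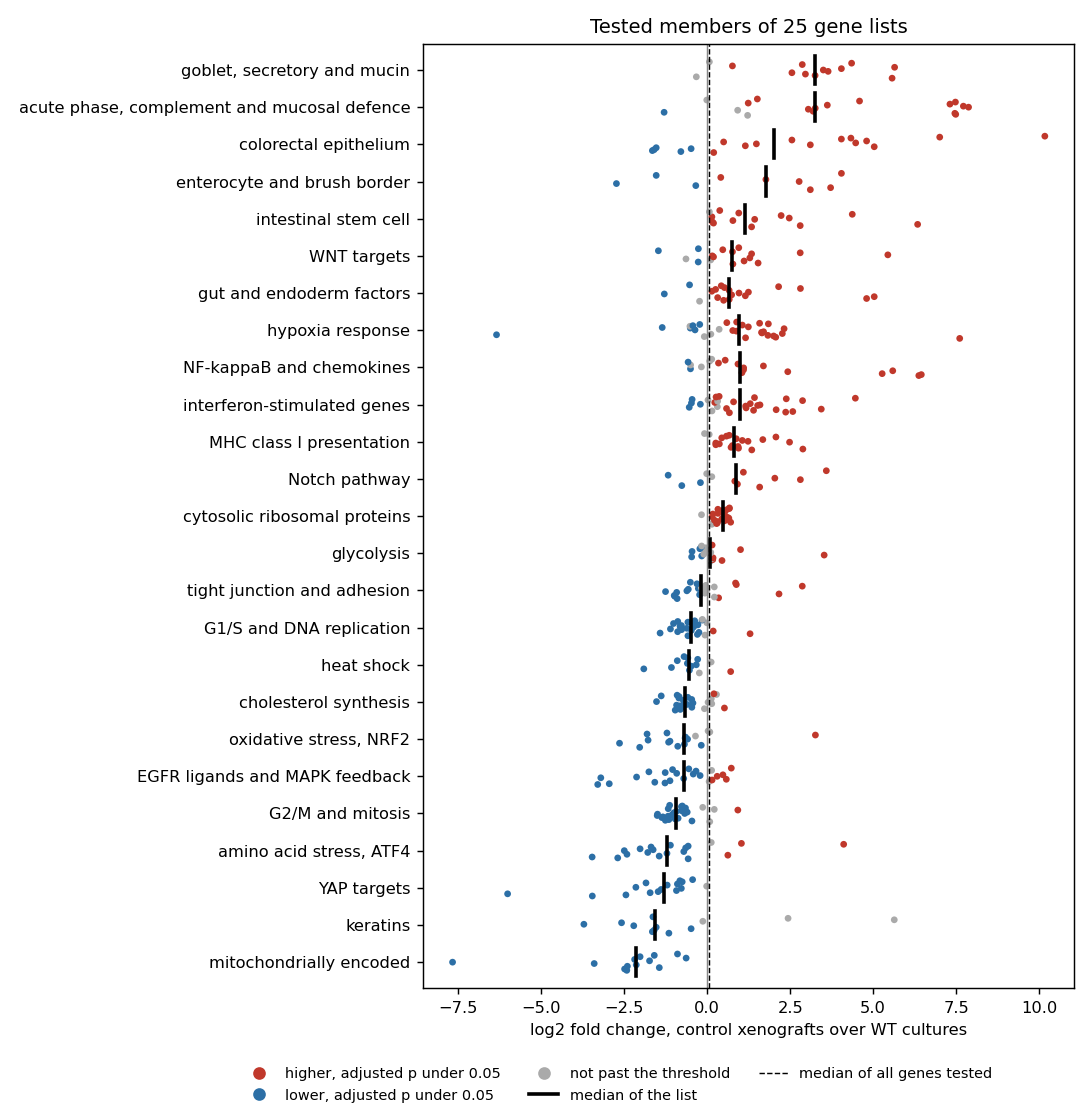
Log2 fold change, control xenografts over WT cultures, of every tested member of 25 gene lists, with a bar at each list's median and a dashed line at the median of all genes tested (0.05). The medians run from 3.25 for goblet and mucin genes to -2.14 for mitochondrially encoded genes.

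The hypoxia response was higher in the tumours. Of 28 tested members, 18 were higher and 6 lower, with a median of 0.97. CA9, whose promoter is shown above, measured 8.01, 6.04, 10.7, 6.77 and 7.79 CPM in control xenografts and 0.0988, 0 and 0 CPM in WT cultures. With 2 counts over the 3 cultures the ratio was 220.2, with a 95% counting interval of 60.8 to 1820.0 (adjusted p = 2.66e-10). NDRG1, a stress-induced protein of differentiation, measured 369, 258, 456, 324 and 336 CPM in control xenografts and 88, 85.8 and 87.6 CPM in WT cultures (log2 2.0, adjusted p = 4.57e-05). The tumours spread more widely than the cultures, but the lowest tumour stood above the highest culture. EGLN3, an oxygen-sensing prolyl hydroxylase, VEGFA, the growth factor of blood vessels, and ADM, the vessel-dilating peptide adrenomedullin, had log2 fold changes of 2.06, 1.15 and 2.26 (adjusted p = 1.5e-08, 0.000293 and 0.00119). PDK1, a kinase that turns pyruvate away from mitochondria, FAM162A and MXI1, a MYC antagonist, had 1.58, 1.06 and 1.24 (adjusted p = 4.08e-09, 4.77e-10 and 7.59e-09). CA9, NDRG1 and ADM were all highest in control xenograft 3.

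Not every target rose. SLC2A1, the main glucose transporter, was lower at 744 ± 144 CPM in control xenografts and 1061 ± 49.4 CPM in WT cultures (SD, n = 5 and 3; log2 -0.51, adjusted p = 0.0161), but this call was lost under total-count scaling (log2 -0.25, adjusted p = 0.154) and the sign turned against the degron cultures (log2 0.15, adjusted p = 0.412). BNIP3, a mitophagy receptor, had 1 count over the 5 tumours and 57 over the 3 WT cultures, and since it has near-identical copies elsewhere in the genome its counting is uncertain. Glycolysis genes were divided, with 6 of 19 higher and 5 lower, beside 38.1% and 35.7% of all genes tested, and a median of 0.09. ALDOC, an aldolase, was higher at 13.9 ± 3.35 CPM in control xenografts and 1.22 ± 0.39 CPM in WT cultures (log2 3.52, adjusted p = 1.12e-07), and HK2, the hexokinase of proliferating cells, had a log2 of 0.44 (adjusted p = 0.000295).

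Mitochondrially encoded transcripts were lower throughout. All 13 passed the test, with a median of -2.14, and the 13 together took 1.27% to 2.16% of counts in control xenografts and 5.64% to 6.51% in WT cultures. MT-ND5, a subunit of complex I, measured 1044, 1255, 671, 819 and 597 CPM in control xenografts and 10139, 8799 and 8999 CPM in WT cultures (log2 -3.41, SE 0.265, adjusted p = 2.68e-05). The groups lay far apart, and control xenografts 1 and 2 were the highest of the tumours. MT-CO2, a subunit of cytochrome oxidase, had a log2 of -2.19 (adjusted p = 6.42e-06), and MT-CO3, another, of -0.64 (adjusted p = 0.000166). Nuclear subunits of the respiratory chain showed no comparable shift, with 3 of 22 higher and 10 lower and a median of -0.12, which was 0.14 under total-count scaling and 0.02 with TPM.

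Lipid and amino acid synthesis genes were lower. Of 24 cholesterol synthesis genes, 17 were lower and 2 higher, with a median of -0.66. FDPS, which makes farnesyl diphosphate, measured 185, 168, 198, 186 and 186 CPM in control xenografts and 332, 339 and 311 CPM in WT cultures (log2 -0.82, SE 0.0563, adjusted p = 6.09e-10). All tumours lay below all WT cultures. MSMO1, a sterol oxidase of the pathway, and DHCR7, its last reductase, had log2 fold changes of -1.53 and -0.86 (adjusted p = 9.72e-09 and 1.18e-09). Of 12 tested fatty acid synthesis genes, 9 were lower and 3 higher, among them SCD, the stearoyl-CoA desaturase, with -1.13 (adjusted p = 1.71e-10). CPT1A, which admits fatty acids to mitochondria, was higher at 79.3 ± 7.06 CPM in control xenografts and 24.8 ± 1.93 CPM in WT cultures (SD, n = 5 and 3; log2 1.68, adjusted p = 8.32e-12).

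The amino acid stress programme of the transcription factor ATF4 had 15 of 19 tested members lower and 3 higher, with a median of -1.22. ASNS, asparagine synthetase, measured 72, 73.3, 60.3, 63.9 and 64.1 CPM in control xenografts and 449, 419.6 and 432 CPM in WT cultures (log2 -2.70, SE 0.0633, adjusted p = 9.02e-16). PSAT1 and PSPH, enzymes of serine synthesis, had -2.50 and -2.02 (adjusted p = 3.68e-16 and 3.2e-14), and MTHFD2, a mitochondrial folate enzyme, had -1.69 (adjusted p = 1.12e-14). The tumours and the WT cultures did not overlap in any of these. NUPR1, a stress-induced chromatin protein on the same list, was instead higher at 7.68 ± 2.56 CPM in control xenografts and 0.431 ± 0.124 CPM in WT cultures (SD, n = 5 and 3; log2 4.11, adjusted p = 1.65e-07).

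Oxidative stress genes of the factor NRF2 had 13 of 17 tested members lower and 1 higher, with a median of -0.69. TXNRD1, a thioredoxin reductase, measured 239.6, 239, 232, 238 and 200.3 CPM in control xenografts and 1476, 1454 and 1380.0 CPM in WT cultures (log2 -2.65, SE 0.0614, adjusted p = 9.02e-16). NQO1, a quinone reductase, and ME1, malic enzyme, had -2.04 and -1.81 (adjusted p = 1.94e-14 and 6.8e-14). Heat shock genes had 10 of 13 lower and 1 higher, with a median of -0.54. HSPH1 and HSP90AA1, protein-folding chaperones, had -1.91 and -1.08 (adjusted p = 9.99e-15 and 2.09e-09).

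Genes of division were lower in the tumours. Of 25 genes of G2/M and mitosis, 21 were lower and 1 higher, with a median of -0.93. CDC20, whose promoter is shown above, measured 152, 165, 162, 158 and 157 CPM in control xenografts and 389.5, 425 and 417 CPM in WT cultures (log2 -1.37, SE 0.0506, adjusted p = 2.24e-13). CCNB1, the mitotic cyclin, AURKA, a spindle kinase, and BUB1, a checkpoint kinase, had -1.16, -1.51 and -1.50 (adjusted p = 4.88e-12, 3.81e-12 and 2.37e-13). Each of the 4 separated all tumours from all WT cultures. MKI67, the proliferation antigen Ki-67, did not pass the test, at 567 ± 109 CPM in control xenografts and 538 ± 19.2 CPM in WT cultures (SD, n = 5 and 3; log2 0.07, adjusted p = 0.696). Of 25 genes of G1/S and DNA replication, 20 were lower and 2 higher, with a median of -0.48. MCM6, a replicative helicase subunit, and CDC6, which loads it, had -1.11 and -1.42 (adjusted p = 5.44e-12 and 2.67e-13). Cell cycle inhibitors had 9 of 14 tested members higher and 2 lower, with a median of 0.46, among them CDKN1C, the inhibitor p57, with 1.48 (adjusted p = 3.12e-06). Cytosolic ribosomal proteins had 23 of 25 higher and none lower, with a median of 0.46. RPL3 averaged 3279 ± 269 CPM in control xenografts and 2011 ± 78.7 CPM in WT cultures (log2 0.70, adjusted p = 4.89e-08), while RPS2 did not pass (log2 -0.17, adjusted p = 0.387). Against the degron cultures RPS2 was lower (log2 -0.59, adjusted p = 2.46e-06).

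YAP targets were lower almost without exception: 15 of 16 were lower and none higher, with a median of -1.30. CCN1, a secreted matrix protein, measured 25.2, 20.2, 18.8, 23.3 and 18.1 CPM in control xenografts and 227, 232 and 239 CPM in WT cultures (log2 -3.46, SE 0.0872, adjusted p = 1.85e-13). ANKRD1 measured 1.58, 0.384, 0.905, 0.579 and 0.458 CPM in control xenografts and 53, 47.2 and 49.4 CPM in WT cultures (log2 -6.02, SE 0.262, adjusted p = 5.12e-08). Both were lower in every tumour than in any WT culture, and ANKRD1 was under 1 CPM in 4 of the 5 tumours. CCN2, AMOTL2, an angiomotin-like scaffold, and LATS2, a kinase that restrains YAP, had -2.45, -1.72 and -1.48 (adjusted p = 2.54e-10, 3.3e-14 and 1.64e-11).

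Ligands and feedback genes of the EGF receptor were lower too, 16 of 23 tested members against 5 higher, with a median of -0.71. That median was 0.10 when the degron cultures replaced the WT cultures. AREG, the ligand amphiregulin, measured 36.2, 37.6, 42, 39.2 and 24.5 CPM in control xenografts and 315, 359 and 392 CPM in WT cultures (log2 -3.30, SE 0.163, adjusted p = 7.39e-07). EREG, the ligand epiregulin, had -2.95 (adjusted p = 3.36e-05) and TGFA, another ligand, -1.27 (adjusted p = 1.53e-11). The feedback phosphatase DUSP6 and the ETS factors ETV4 and ETV5 had -2.13, -1.27 and -1.76 (adjusted p = 6.46e-08, 2.9e-11 and 1.22e-10). Against the degron cultures AREG and EREG had -2.43 and -2.31, DUSP6 -0.45 and ETV5 -0.20 (adjusted p = 0.0629 for ETV5).

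Adhesion genes split. Of 22 tight junction and adhesion genes, 11 were lower and 5 higher, beside 35.7% and 38.1% of all genes tested. Their median of -0.20 became 0.06 under total-count scaling and with TPM. CLDN4 and CLDN7, claudins that seal the junction, and TJP1, the scaffold ZO-1, had -0.98, -1.0 and -1.26 (adjusted p = 5.24e-10, 1.17e-10 and 9.93e-12), while DSC2, a desmosomal cadherin, was higher at 63 ± 5.44 CPM in control xenografts and 8.69 ± 0.742 CPM in WT cultures (SD, n = 5 and 3; log2 2.86, adjusted p = 5.22e-14). Of 20 tested integrin and laminin genes, 8 were higher and 10 lower. Their median of -0.19 became 0.07 under total-count scaling. Among those lower, the integrin subunits ITGB1, ITGB5 and ITGA3, receptors for matrix, had -0.89, -1.63 and -0.93 (adjusted p = 4.85e-11, 2.35e-13 and 3.62e-11). THBS1, a matrix protein that restrains vessels, measured 28.3, 29.8, 26.6, 27.9 and 27 CPM in control xenografts and 269, 261 and 240.2 CPM in WT cultures (log2 -3.20, SE 0.0578, adjusted p = 5.63e-17). INHBB, a subunit of activin, and TIMP2, an inhibitor of matrix proteases, had -3.88 and -2.24 (adjusted p = 1.41e-13 and 2.17e-15). The lists of these 3 genes went both ways. Of 12 tested angiogenic factors, the list of THBS1, 6 were higher and 5 lower. Of 16 tested TGF-beta and activin genes, the list of INHBB, 7 were higher and 8 lower. Of 12 tested protease and matrix remodelling genes, the list of TIMP2, 4 were higher and 8 lower.

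Antigen presentation genes were higher. Of 20 MHC class I genes, 18 were higher and none lower, with a median of 0.81. HLA-B, a classical heavy chain, measured 82, 77.6, 80.5, 83.4 and 112 CPM in control xenografts and 11.8, 10.8 and 13 CPM in WT cultures (log2 2.88, SE 0.143, adjusted p = 1.26e-08). B2M measured 107, 101, 104, 100.4 and 104 CPM in control xenografts and 63.6, 59 and 60.8 CPM in WT cultures (log2 0.76, SE 0.0553, adjusted p = 1.5e-09). Both separated tumours from WT cultures without overlap. NLRC5, the transactivator of class I genes, had 2.07 (adjusted p = 8.01e-10), a call lost with TPM (log2 0.45, adjusted p = 0.0671). PSMB10, a subunit of the immunoproteasome, and TAPBPL, a peptide editor, had 1.67 and 2.48 (adjusted p = 1.41e-09 and 4.37e-11).

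Interferon-stimulated genes had 20 of 28 tested members higher and 4 lower, with a median of 0.97. IFIT3 measured 14.2, 16.3, 19.2, 16.8 and 19 CPM in control xenografts and 3.56, 4.58 and 4.02 CPM in WT cultures (log2 2.08, SE 0.135, adjusted p = 3.37e-10). IRF9, a factor of the interferon signal, OAS1, an antiviral sensor, and PARP9, an interferon-induced regulator, had 2.87, 1.59 and 1.42 (adjusted p = 1.39e-09, 6.87e-12 and 3.08e-11).

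Chemokines and mucosal defence genes included transcripts that were near 0 in WT cultures. Of 18 tested NF-kappaB and chemokine genes, 12 were higher and 2 lower, with a median of 0.98. CXCL1 measured 4.12, 7.99, 7.66, 6.42 and 5.0 CPM in control xenografts and 0.0988, 0 and 0.12 CPM in WT cultures (log2 6.38, SE 0.46, adjusted p = 5.27e-09). CXCL3 measured 11.6, 17.6, 17.5, 15.6 and 13.2 CPM in control xenografts and 0.494, 0.0995 and 0.60 CPM in WT cultures (log2 5.27, SE 0.306, adjusted p = 3.81e-09). CXCL2 measured 3.89, 7.71, 6.22, 3.7 and 3.48 CPM in the tumours and had 3 counts over the WT cultures, a ratio of 102 with a 95% counting interval of 34.6 to 494 (adjusted p = 2.15e-07). Control xenografts 2 and 3 were the highest for all 3 chemokines. CXCL5, a chemokine of the same family, was already abundant in WT cultures, at 848 ± 165 CPM in control xenografts and 411 ± 3.16 CPM in WT cultures (SD, n = 5 and 3; log2 1.04, adjusted p = 0.000578), while against the degron cultures its log2 was 0.26 (adjusted p = 0.197). TNFAIP3 and NFKBIA, feedback inhibitors of NF-kappaB, had 1.69 and 0.93 (adjusted p = 6.61e-08 and 1.53e-09).

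Of 25 acute phase, complement and mucosal defence genes, 17 passed the filter on low counts. Of these 17, 13 were higher and 1 lower, with a median of 3.25. Members near 0 in WT cultures, such as CFB, PIGR and FGA, passed the filter through the tumours and could only come out higher. LCN2, an iron-binding antibacterial lipocalin, measured 168, 188, 356, 145 and 206 CPM in control xenografts and 23.8, 22.1 and 24.2 CPM in WT cultures (log2 3.19, SE 0.373, adjusted p = 0.000252). CFB, a component of the alternative complement pathway, measured 10.1, 15.5, 16.8, 9.67 and 15.3 CPM in control xenografts and 0.148, 0 and 0.060 CPM in WT cultures (log2 7.49, SE 0.459, adjusted p = 2.17e-08). Both separated the groups without overlap. PIGR, the receptor that carries IgA across the lining, measured 6.47, 13.1, 12.1, 12.6 and 29.97 CPM in control xenografts and 0.247, 0 and 0 CPM in WT cultures (log2 7.31, adjusted p = 0.000951). FGA, the fibrinogen alpha chain, averaged 5.34 ± 2.42 CPM in the tumours with 1 count over the WT cultures, a ratio of 298 with a 95% counting interval of 53.2 to 11771 (adjusted p = 1.62e-06). C4BPB, a complement regulator, was the member that was lower, with -1.30 (adjusted p = 5.39e-08).

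**Figure D3:**
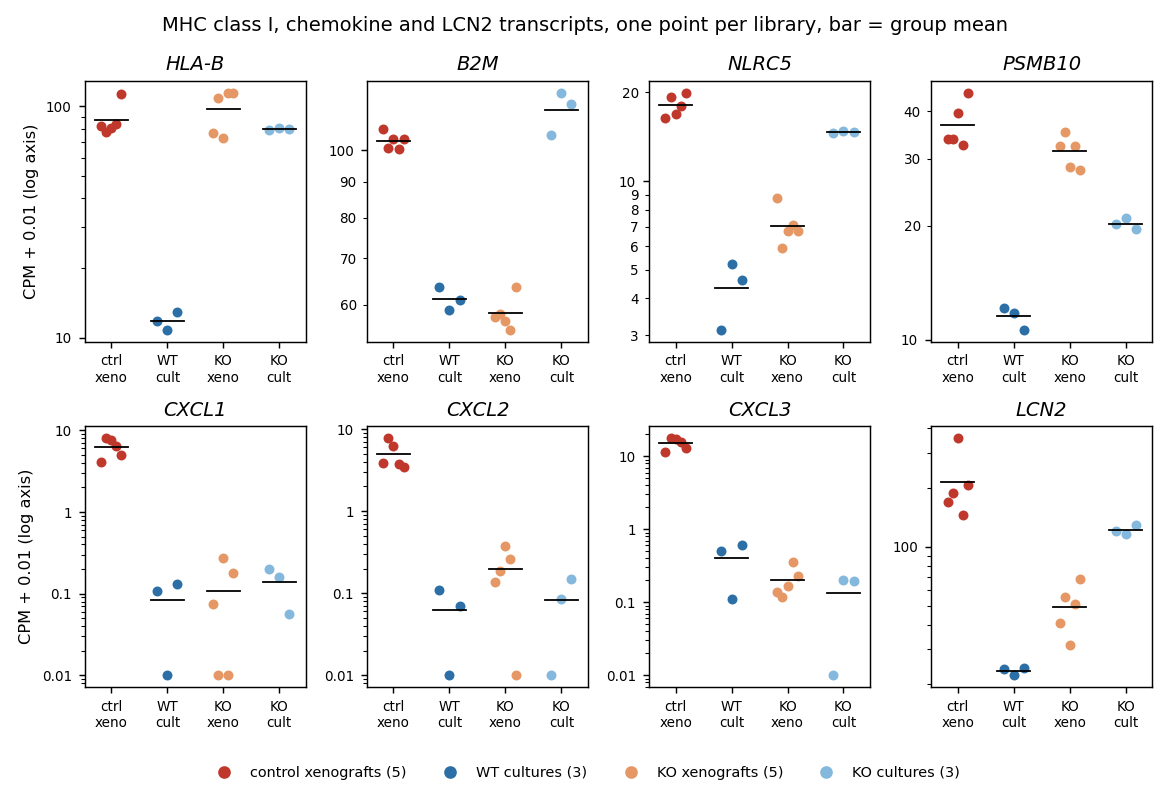
CPM plus 0.01 (log axis) of HLA-B, B2M, NLRC5, PSMB10, CXCL1, CXCL2, CXCL3 and LCN2 in each library of the 4 groups, with a bar at the group mean; each pair of tumours and cultures is on the scale of its own fit. All 8 lie higher in every control xenograft than in every WT culture, and CXCL1, CXCL2 and CXCL3 lie under 1 CPM in every library of the other 3 groups.

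The same step was taken in libraries of KO cells, which share no library with the comparison above but may share its differences in annotation and preparation. Of 15159 genes tested there, 10838 (71.5%) differed between KO xenografts and KO cultures, 5577 (36.8%) higher and 5261 (34.7%) lower. Among the 14398 genes tested in both, 8069 were called in the same direction, 75.7% of the calls in GATA6-intact cells and 78.5% of those in KO cells, and 404 in opposite directions. Of the 3641 calls in GATA6-intact cells with a log2 of 1 or more, 3142 (86.3%) were called the same way in KO cells and 72 the opposite way. In a fit of all 16 libraries, the difference between the steps passed the test for 4328 of 16021 genes (27%), with the step of GATA6-intact cells the higher for 2304 (14.4%) and the lower for 2024 (12.6%).

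Several groups had most of their members called in the same direction in both. YAP targets had 15 of 16 members lower and none higher in KO xenografts, with a median of -2.21. Hypoxia genes had 17 of 28 higher and 4 lower, with a median of 0.93, and ATF4 targets had 15 of 19 lower and 3 higher, with a median of -1.21. Ribosomal proteins had 24 of 25 higher and none lower. ANKRD1 fell to 2.9 ± 0.887 CPM in KO xenografts, against 200.5 ± 10.1 CPM in KO cultures (SD, n = 5 and 3), and the log2 difference between the steps was 0.10 (adjusted p = 0.892). CDC20 fell to 107 ± 24 CPM in KO xenografts, against 283 ± 11 CPM in KO cultures, with a log2 difference between the steps of 0.01 (adjusted p = 0.978). The difference between the steps was called for 8 of the 16 YAP targets, higher in GATA6-intact cells for 7 and lower for 1, and for 8 of the 19 ATF4 targets, higher for 6 and lower for 2, beside 27% of all genes. A difference that misses the threshold does not show that the steps were equal.

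Antigen presentation and defence genes differed between the steps. In KO cells 6 of 20 MHC class I genes were higher and 8 lower, with a median of -0.09, and the difference between the steps was called higher in GATA6-intact cells for 17 of the 20 and lower for 1. B2M fell to 58.3 ± 3.18 CPM in KO xenografts, against 114 ± 8.06 CPM in KO cultures (log2 -0.97, adjusted p = 1.36e-07), a difference between the steps of 1.71 (adjusted p = 4.04e-11). HLA-B stood at 97.2 ± 20.6 CPM in KO xenografts and 79.7 ± 0.72 CPM in KO cultures, a difference between the steps of 2.57 (adjusted p = 6.86e-07). CXCL1 averaged 0.0982 ± 0.113 CPM in KO xenografts and 0.129 ± 0.0737 CPM in KO cultures, a difference between the steps of 6.85 (adjusted p = 0.000307), and CXCL3 had 4.72 (adjusted p = 0.000915). CXCL2 had 5.11 (adjusted p = 0.0114), which was lost without KO culture 2 (5.06, adjusted p = 0.0506) or KO culture 3 (4.39, adjusted p = 0.133). LCN2 fell to 49.4 ± 14.1 CPM in KO xenografts, against 122 ± 6.3 CPM in KO cultures, a difference between the steps of 4.46 (adjusted p = 5.35e-06).

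The 4 markers also differed between the steps. MUC13 fell to 18.1 ± 2.79 CPM in KO xenografts, against 25.9 ± 2.51 CPM in KO cultures (log2 -0.51, adjusted p = 0.00258), a difference between the steps of 3.04 (adjusted p = 1.89e-11). LEF1 rose in both, further in KO xenografts at 234 ± 26.5 CPM, against 10.2 ± 1.46 CPM in KO cultures, a difference of -3.0 (adjusted p = 2.91e-11). PTP4A3 averaged 2.95 ± 1.43 CPM in KO xenografts and 1.3 ± 0.374 CPM in KO cultures, a difference of 5.35 (adjusted p = 1.34e-05). SEMA5A rose in KO xenografts, at 28.5 ± 19.2 CPM, against 3.88 ± 0.723 CPM in KO cultures (log2 2.89, adjusted p = 0.00457), a difference of -6.36 (adjusted p = 2.32e-05). GATA6 itself differed between the steps by -0.71 (adjusted p = 0.018), a call lost under total-count scaling (adjusted p = 0.0532), without WT culture 3 (adjusted p = 0.0587) and without KO culture 2 (adjusted p = 0.0583).

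Mitochondrial and cholesterol genes also differed in size between the steps. Mitochondrially encoded genes had 7 of 13 lower and 2 higher in KO cells, with a median of -0.53, and the difference between the steps was called lower in GATA6-intact cells for 12. MT-CO3 rose to 3098 ± 579 CPM in KO xenografts, against 1861 ± 38.8 CPM in KO cultures (log2 0.73, adjusted p = 0.000281), a difference of -1.39 (adjusted p = 1.03e-05). Cholesterol synthesis genes had 21 of 24 lower in KO cells, with a median of -1.57, and the difference was called higher in GATA6-intact cells for 21. MSMO1 fell to 75 ± 9.13 CPM in KO xenografts, against 498 ± 13.7 CPM in KO cultures (log2 -2.73, adjusted p = 2.46e-10), a difference of 1.18 (adjusted p = 3.17e-06). For G2/M genes, 23 of 25 were lower in KO cells, with a median of -1.40, and the difference was called for 10, all of them less lowered in GATA6-intact cells.

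**Figure D4:**
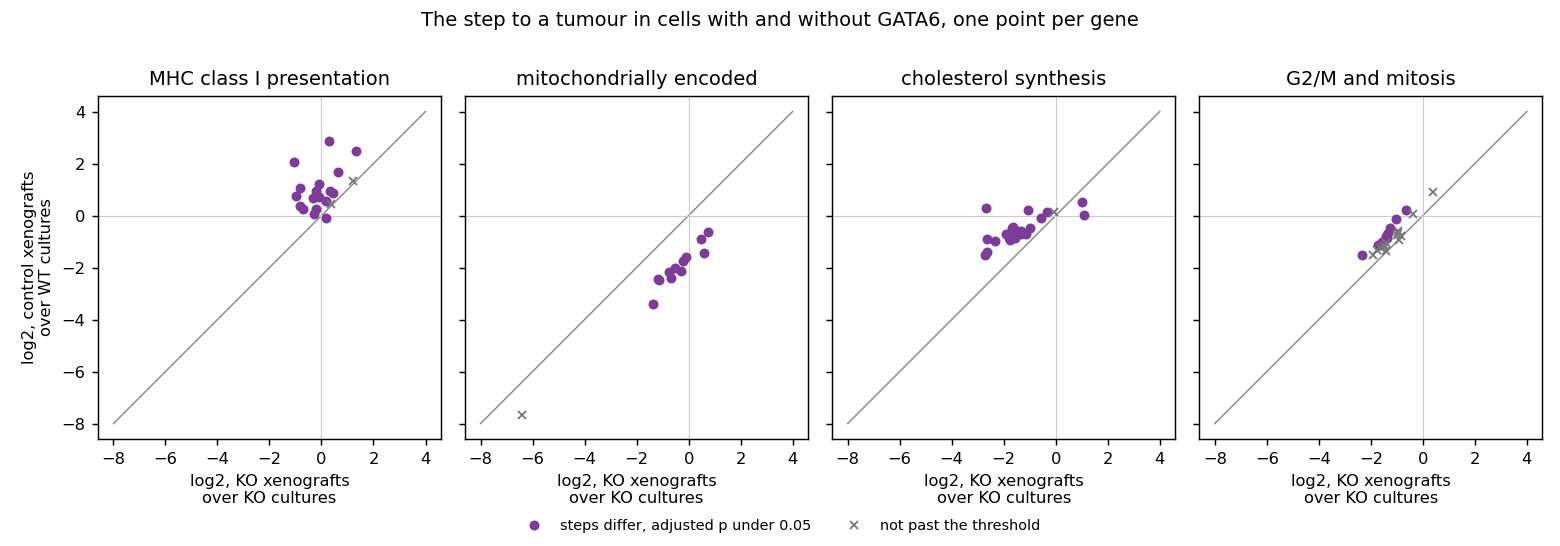
Log2 fold change of control xenografts over WT cultures (vertical) and of KO xenografts over KO cultures (horizontal), one point per gene tested in both, for 4 lists; circles are genes whose steps differ at an adjusted p under 0.05 and the line marks equal steps. MHC class I and cholesterol genes lie mostly above the line. The 12 mitochondrial genes whose steps differ lie below it, and the 1 mitochondrial gene far to the left is MT-ND6.

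The extremes of the comparison held both gut genes and genes whose counting is doubtful. Of the 15 highest protein-coding genes, 10 shared exon bases with another gene, as did 8 of the 15 lowest. Such sharing was common, since only 7307 of all 14941 genes tested shared none. MICOS10-NBL1, among the highest, is a read-through gene that joins neighbours. Among the genes without such overlap, SLITRK6, a transmembrane protein with leucine-rich repeats, measured 13.3, 9.68, 10.4, 11.1 and 17.9 CPM in control xenografts and had 0 counts in the WT cultures, at least 229-fold higher (adjusted p = 7.71e-08). PLA2G2A, a secreted phospholipase of the gut lining, measured 26.9, 33.1, 26.1, 20.3 and 28.2 CPM in control xenografts and 0.0494, 0.0995 and 0.060 CPM in WT cultures (log2 8.48, SE 0.30, adjusted p = 1.99e-12). ALDH1A1, a retinaldehyde dehydrogenase, measured 11, 13.5, 15.3, 13.5 and 30.9 CPM in the tumours with 2 counts over the WT cultures, a ratio of 461 with a 95% counting interval of 127 to 3806 (adjusted p = 0.000122). PPP1R1B, a phosphatase inhibitor, averaged 4.49 ± 1.73 CPM in control xenografts and had 0 counts in the WT cultures, at least 83.1-fold higher (adjusted p = 1.19e-06). At the lower end, CPA4, a carboxypeptidase, measured 0.308, 0.128, 0.151, 0.0445 and 0.183 CPM in control xenografts and 9.49, 10.1 and 9.0 CPM in WT cultures (log2 -5.83, SE 0.263, adjusted p = 2.83e-12). HEG1, a receptor of junctions, averaged 5.07 ± 0.972 CPM in control xenografts and 98.1 ± 4.21 CPM in WT cultures (SD, n = 5 and 3; log2 -4.26, adjusted p = 2.01e-14). VGLL3, a TEAD cofactor, averaged 1.83 ± 0.345 CPM in control xenografts and 28.5 ± 0.577 CPM in WT cultures (log2 -3.93, adjusted p = 4.01e-14).

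Large changes were frequent among genes that lie opposite other genes. Of 65 tested genes with 90 to 100% of their exon bases covered by exons on the opposite strand, 46 were lower and 14 higher, 80% passed a log2 of 3, and the median was -4.73. Together they summed to 140.3 to 159 CPM in control xenografts and 479.6 to 503.3 CPM in WT cultures. Among 8793 genes with no such overlap, 6.8% passed a log2 of 3 and the median was 0.04. MT-ND6 lies on the opposite strand from the other mitochondrial coding genes but shares no exon bases with another gene. It is therefore outside the covered classes, and it had a log2 of -7.68 (adjusted p = 1.01e-06). Its share of mitochondrial counts was low in all 10 xenografts (0.0207% to 0.082%). It was high in all 18 cultures of the series, auxin-treated degron cultures included (2.15% to 3.41%). DENND1C, a regulator of vesicle transport, measured 0, 0.179, 0, 0 and 0 CPM in control xenografts and 30.3, 27.7 and 22 CPM in WT cultures, and SFT2D3, a vesicle protein whose exons lie wholly within another gene's on the opposite strand, measured 10.5, 10.7, 10.4, 10.7 and 10.7 CPM in control xenografts and had 0 counts in the WT cultures. Whether the strand setting of the counting differed between the file sets was not tested.

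**Figure D5:**
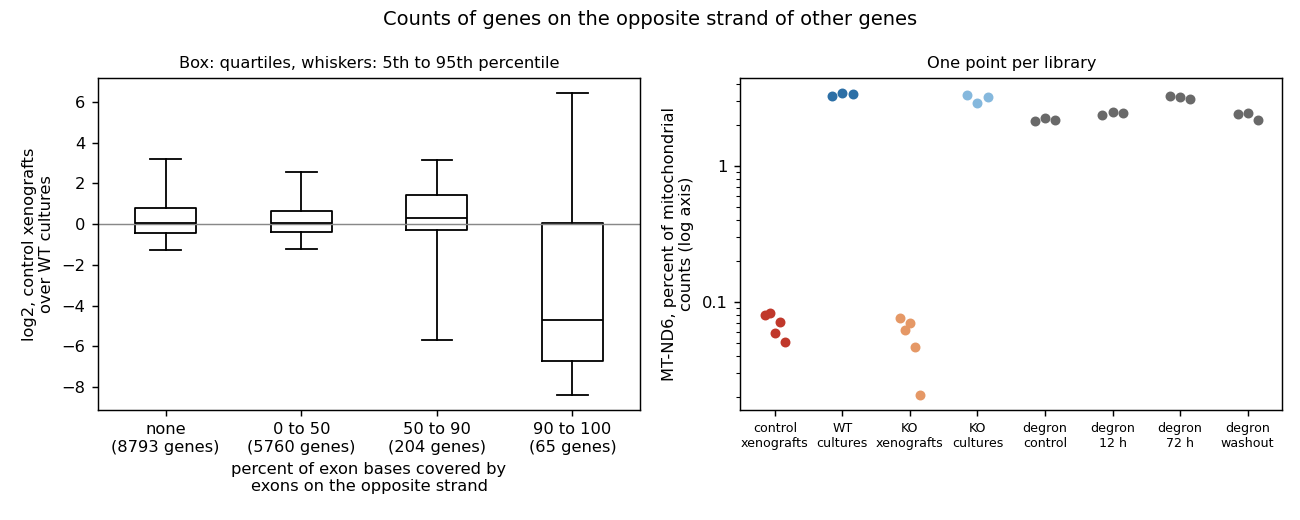
Left, log2 fold change of control xenografts over WT cultures by the percent of a gene's exon bases covered by exons on the opposite strand (box, quartiles; whiskers, 5th to 95th percentile). Right, MT-ND6 as a percent of mitochondrial counts in each library (log axis), under 0.1% in all 10 xenografts and above 2% in all 18 cultures. The cultures include degron cultures with and without auxin. MT-ND6 shares no exon bases with another gene and is outside the covered classes on the left.

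A total of 32 genes had 0 counts in the 3 WT cultures and at least 1 CPM in every control xenograft, 22 of them protein-coding. Of the 32, 7 were also at 0 in the other 15 culture libraries of the series, of KO cells and of the degron line with and without auxin. Beside 7307 of 14941 genes tested, 11 of the 32 shared no exon bases with another gene. PHGR1, SLITRK6, PPP1R1B and ASIC5, an acid-sensing ion channel, were among these 11. Over the other 15 culture libraries, PPP1R1B had 146 counts in 12 libraries, SLITRK6 8 counts in 4 and PHGR1 2 counts in 2. These 3 genes were thus absent from the WT cultures but not from all cultures. ASIC5 measured 4.51, 2.94, 3.77, 4.10 and 10.1 CPM in control xenografts, was at 0 in all 18 cultures and averaged 0.485 CPM in KO xenografts.

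The control xenografts were alike among themselves. The SD of log2 CPM over a group had a median of 0.0963 in control xenografts and 0.0781 in WT cultures, over 9964 genes with a mean log2 CPM of 3 or more. It exceeded 0.5 for 25 genes in control xenografts and 102 in WT cultures. Every pair of replicates differed by more than counting noise in both groups. Among the most variable genes in the tumours were FGB, the fibrinogen beta chain, with 11.1, 4.84, 30.4, 6.68 and 7.88 CPM, PIGR and APCDD1, whose values are given above, and PRSS2, a trypsinogen, with 63.1, 137.6, 61.1, 58.3 and 39.7 CPM in control xenografts and 17.1, 16.5 and 16.6 CPM in WT cultures. Control xenograft 3 was the highest for FGB and LCN2, control xenograft 5 for PIGR and ALDH1A1, and control xenograft 2 for PRSS2.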

How the data were processed

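Polyadenylated RNA was sequenced from directional libraries, per the labels' protocols. The authors trimmed reads with Trim Galore 0.6.10, used STAR and RSEM, and worked on hg38, per the submitters' processing notes; the strand setting, the annotation release and the handling of mouse reads are not given in the sources used here. The deposited gene files hold RSEM expected counts and TPM, per the file headers. Expected counts were rounded to whole numbers and joined by gene identifier without version, which kept 60463 genes shared by both kinds of file. Gene types and positions of 58207 of them came from GENCODE 29 on hg38.

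The main test was edgeR 4.0.16 (R 4.3.3; filterByExpr, TMM scaling, quasi-likelihood test) on the 8 libraries, with no covariate and Benjamini-Hochberg adjustment over all genes tested at a threshold of 0.05. The KO pair was fitted alone, and the difference between the steps came from 1 fit of all 16 libraries. Deposited TPM values were tested with limma 3.58.1 on log2(TPM + 1) and log2(TPM + 0.1), and DESeq2 1.42.0 was another alternative. The scripts were tested on simulated data. Levels are CPM on the TMM scale of each pair's own fit, and counting intervals (95%) and floors of 3 counts cover counting error only. Total counts were 18408842 to 36500654 per library, so transcripts under 1 CPM rest on few counts.

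The markers and gene lists were chosen with earlier results of these data known. Genes were named by rule: the 4 members of each list with the lowest adjusted p, the 15 highest and 15 lowest protein-coding genes (also without exon overlap), the 6 most variable and 6 of those absent from WT cultures. Chosen after their values were seen were CEACAM5, GPA33, TFF3, REG4, CDX2, KRT20, EPCAM, ASCL2, ADM, EGLN3, VEGFA, NDRG1, SLC2A1, BNIP3, MSMO1, NUPR1, MT-CO3, MKI67, RPS2, HLA-B, B2M, CXCL2, CXCL5, LCN2, CCN2, AREG, EREG, DUSP6 and CASP1. Some genes named by the rule are not reported here.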

Additional observations from a re-analysis of the deposited data

Results flagged for a closer look

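In 17 of 154 named genes, 1 of the 5 control xenografts stood apart from the other 4, with a gap to its neighbour above 0.71 of the group's whole range. Chance alone does this in about 1 in 20 groups. Control xenograft 5 stood apart for LGR5 at 70.06 CPM, TXNRD1 at 200.3 CPM, HLA-B at 112.5 CPM, PIGR at 29.97 CPM, EREG at 68.14 CPM, ALDH1A1 at 30.88 CPM, SEMA3F at 140 CPM and SEMA4A at 10.08 CPM. Control xenograft 3 stood apart for CEACAM5 at 72 CPM, LCN2 at 356.4 CPM, FGA at 9.542 CPM, FGB at 30.36 CPM and PLXNB1 at 51.94 CPM. The remaining cases were BNIP3 at 0.0256 CPM and DENND1C at 0.1792 CPM in control xenograft 2, RPS6KA6 at 0.3082 CPM in control xenograft 1 and PABPC3 at 0.1337 CPM in control xenograft 4, all of which rest on few counts. No named gene lost its call or direction when the tumour that stood apart was left out.

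The difference between the steps passed edgeR's test for 27% of all genes tested. Named genes were chosen largely by their values in GATA6-intact cells, 1 side of that difference. The step to a tumour differed between GATA6-intact and KO cells, by the same test, for 83 of the 154 named genes. In a selection of 22 of these it was higher in GATA6-intact cells (log2 difference) for MUC13 at 3.04, PTP4A3 at 5.35, CD44 at 1.7, HLA-B at 2.57, B2M at 1.71, NLRC5 at 3.12, PSMB10 at 1.02, IFIT3 at 2.34, PARP9 at 0.7, CXCL1 at 6.85, CXCL2 at 5.11, CXCL3 at 4.72, TNFAIP3 at 1.37, LCN2 at 4.46, PIGR at 7.11 and MSMO1 at 1.18. It was lower for LEF1 at -3, SEMA5A at -6.36, ASCL2 at -1.13, MT-CO2 at -1.46, MT-CO3 at -1.39 and MT-ND5 at -2.05. Other described genes with such a difference included VIL1 at 1.71, MUC1 at 1.24, SLC5A1 at 2.38, EHF at 1.25, AXIN2 at -1.38, EPHB3 at -1.37 and KRT8 at -0.58. The call for PIGR was lost without KO culture 1 (adjusted p = 0.223).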

How the results depend on the processing

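Of 154 named genes, 143 kept their direction and call against WT cultures under every alternative run, and 152 did so without each library in turn, with GATA6 and EPCAM the exceptions. The 11026 calls became 11691 with DESeq2, 12691 with no filter, 8666 among genes of equal identifier version and 11451 with the degron cultures. Leaving out each library gave 10431 to 10874 calls, 9946 to 10984 in the KO pair and 3627 to 4611 for the difference between the steps. Total-count scaling left 3361 genes lower. Genes without exon overlap, an alternative chosen after seeing the data, gave 5419 calls, 2814 higher and 2605 lower, from 7322 tested, and allowing 2 counts in WT cultures gave 59 genes in place of 32. Replicate numbers did not pair the samples (correlations of same-numbered deviations -0.053, -0.037 and -0.026); with a replicate block 10298 genes passed (5250 higher, 5048 lower), and 10524 in the KO pair.

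With the degron cultures the direction turned for GATA6 (0.52), EPCAM (-0.27), LGR5 (-0.23), ASCL2 (-0.52) and SLC2A1 (0.15), and the medians of circadian (0.54), EGFR and MAPK (0.10), TGF-beta (0.41), BMP (0.14), protease (1.03) and drug efflux genes (0.09). Total-count scaling turned the medians of tight junction (0.06), respiratory chain (0.14), unfolded protein (0.16), p53 (0.09), TGF-beta (0.06), BMP (0.11) and integrin genes (0.07). With log2(TPM + 1) they were 0.06, 0.02, 0.17, 0.06 and 0.10 for the first 5, and with log2(TPM + 0.1) 0.06, 0.02, 0.18, 0.06 and 0.10. Angiogenic factors had -0.05 among genes of equal version and drug efflux 0.08 without exon overlap. The causes were not tested. Depth limits transcripts under 1 CPM.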

Other observations

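Other signalling families are given beside all genes tested, of which 38.1% were higher and 35.7% lower in control xenografts. Notch genes had 7 of 12 tested members higher and 3 lower in control xenografts, among them DLL4, a Notch ligand, at 9.36 ± 1.5 CPM in control xenografts and 2.29 ± 0.383 CPM in WT cultures (SD, n = 5 and 3; log2 2.04, adjusted p = 1.3e-08, edgeR). Of 5 tested hedgehog genes, 4 were higher and 1 lower. SHH, the ligand sonic hedgehog, averaged 4.06 ± 0.767 CPM in control xenografts and 0.534 ± 0.231 CPM in WT cultures (log2 2.90, adjusted p = 6.53e-08), and HHIP, which binds and restrains it, 7.29 ± 0.632 CPM in control xenografts and 0.90 ± 0.419 CPM in WT cultures (log2 2.98, adjusted p = 3.65e-09). Semaphorins and their receptors, the family of SEMA5A, had 10 of 18 tested members higher and 3 lower. SEMA3F, a secreted semaphorin, averaged 115 ± 14 CPM in control xenografts and 28.3 ± 1.79 CPM in WT cultures (log2 2.02, adjusted p = 8.19e-11), and PLXNB1, a semaphorin receptor, 58.8 ± 4.03 CPM in control xenografts and 7.55 ± 0.652 CPM in WT cultures (log2 2.96, adjusted p = 2.01e-14). NRP1, the co-receptor neuropilin, fell to 31.3 ± 2.02 CPM in control xenografts, against 94.2 ± 2.37 CPM in WT cultures (log2 -1.59, adjusted p = 4.39e-13).

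Cell death genes went both ways, with 11 of 18 tested members higher and 5 lower, beside 38.1% and 35.7% of all genes tested. BCL2L1, which protects cells from death, fell to 169.6 ± 9.2 CPM in control xenografts, against 517 ± 22.7 CPM in WT cultures (SD, n = 5 and 3; log2 -1.61, adjusted p = 8.44e-14). PMAIP1, the death-promoting NOXA, had a log2 of -1.30 (adjusted p = 4.43e-09). CASP1, the caspase of inflammasomes, measured 1.54, 1.3, 2.11, 0.847 and 1.97 CPM in control xenografts and had 0 counts in the WT cultures, at least 29.2-fold higher (adjusted p = 6.95e-07). Glucocorticoid-responsive genes had 8 of 14 lower and 4 higher, among them KLF9, a zinc-finger factor, at 6.61 ± 0.80 CPM in control xenografts and 56.8 ± 1.18 CPM in WT cultures (log2 -3.10, adjusted p = 6.33e-15). Nuclear noncoding RNAs had 7 of 10 higher and none lower, including NEAT1, the scaffold of paraspeckles, at 339.9 ± 95.9 CPM in control xenografts and 28.9 ± 1.38 CPM in WT cultures (log2 3.56, adjusted p = 4.03e-05), and GAS5, a host of small nucleolar RNAs, at 232 ± 19.2 CPM in control xenografts and 62.9 ± 3.02 CPM in WT cultures (log2 1.88, adjusted p = 2.84e-13). The groups did not overlap in any gene named here, which was common among all genes.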
